A study of Mus musculus with 10 samples.

Results

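Integrins are receptors made of 1 alpha and 1 beta subunit that hold a cell to its matrix. The 10 subunit genes described here are Itga1, Itga2, Itga3, Itga6, Itgav, Itgb1, Itgb4, Itgb5, Itgb6 and Itgb8, which were chosen by name and matched on symbol among the 31053 genes of the count tables, and all 10 were found. They were measured in single alveolar epithelial cells from the distal lung of mice in which some alveolar type II (AT2) cells had been made to express a mutant allele. The study asked how mutant cells, and wildtype cells beside them, leave the AT2 state.

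All mice carried Sftpc-CreERT2, a Cre recombinase that is driven by the promoter of a surfactant gene and is switched on by tamoxifen, so labelled cells descend from cells that expressed Sftpc. All were 8 weeks old and received 3 doses of 0.2 mg tamoxifen per g body weight. Sftpc-CreERT2; R26R-Confetti mice gave 1 RFP and 1 YFP library in which both colours are wildtype. Mosaic mice, with Sftpc-CreERT2 and a multicolour reporter that ties a mutant allele to RFP, gave RFP+ cells that carry this allele and YFP+ cells from those same lungs that are wildtype, with 2 libraries per colour and time, taken 4 days or 2 weeks after induction. These are 6 groups and 10 libraries of EpCAM+ sorted cells. Each library pooled several lungs, so the p-values below measure the spread between pooled libraries. No label dates the Confetti libraries. According to the methods they were taken at 2 weeks, so time and genotype cannot be told apart where 4 days libraries are set against Confetti.

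Itgb1 pairs with many alpha chains, and with the products of Itga1 and Itga2 it forms collagen receptors. With the Itga3 product it binds laminin, the main glycoprotein of the epithelial basement membrane. Itga6 pairs with Itgb1 or with Itgb4, and the pair with Itgb4 anchors cells to laminin at hemidesmosomes. Itgav pairs with Itgb5, Itgb6 and Itgb8, which bind ligands with an RGD motif, and the pairs with Itgb6 and Itgb8 are known for releasing active TGF-beta from its latent form in the lung.

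The alveolar cells numbered 1009 to 4225 per library, with 7344247 to 71563815 UMIs (unique molecular identifiers, which count RNA molecules). The median cell held 3251 to 6714 UMIs in 8 libraries but 15815 and 13385 in 2 weeks RFP replicates 1 and 2. Cell states were rebuilt by clustering and named from marker genes, so they may differ from those of the study. The pairs of 4 days libraries stood apart from each other in these states. AT2 cells, which were found by surfactant and lipid transport genes, made up 89.7% of 4 days RFP replicate 1 and 3.49% of replicate 2, and those shares were 95.4% and 1.43% among YFP cells of that time. The 2 weeks RFP replicates differed as well, with 4.07% and 51.6% of cells in a cluster marked by Cd177 and Dlk1. The share of cells called female was 100% in both Confetti libraries, at most 0.535% in every mosaic replicate 2, and, in replicate 1 of RFP and YFP, 82.7% and 85.1% at 4 days but 35.2% and 25.8% at 2 weeks. The part of sex, depth and state make-up in the differences below was not tested. In alveolar cells the summed markers of immune cells reached 13.1 to 23.4 counts per 1000000 (CPM), those of endothelial cells 16.01 to 38.6 and those of mesenchymal cells 0.136 to 2.00, with several endothelial and mesenchymal markers at 0 in single libraries. No pair of libraries shared more than 0.496% of the smaller library's barcodes.

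Levels below are UMIs of all alveolar cells of a library, summed and given as TMM-scaled CPM, the unit per 1000000 UMIs after scaling for library make-up. The reads come from the 3' end of transcripts, so levels are compared between libraries for 1 gene and not between genes. In such sums, fewer cells of a kind and less RNA per cell cannot be told apart.

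The clearest difference among the 10 subunits was in Itga2, which codes for the collagen-binding alpha chain (chr13:114833081-114932100, minus strand, GRCm38). Itga2 stood at 0.0604 CPM in Confetti RFP, which is 1 UMI, and at 0 in Confetti YFP. Its level was 4.90 and 162 CPM in 4 days RFP replicates 1 and 2, and 103 and 146 CPM in 2 weeks RFP. In wildtype YFP cells it was 0 and 1.64 CPM at 4 days and 5.35 and 27.1 CPM at 2 weeks. Both 2 weeks RFP libraries and 4 days RFP replicate 2 were thus far above the rest, while 4 days RFP replicate 1 stood below both 2 weeks YFP libraries.

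No member passed in the unpaired tests between colours described below. The start of Itga2 is shown because it is the member that passed in RFP cells of the later time against Confetti. That of Itga3 is shown because its levels moved with those of Itga2. Both are RefSeq promoter windows of GRCm38.p6, from 250 bases before to 50 bases after the gene start, written in lower case with the motifs found in capitals. Promoter windows were matched for 8 of the 10 members, and Itga6 and Itgb4 had none. Itga3 had a second window (chr11:95069149-95069448), and the first of the table is printed. The Itga2 window lies at chr13:114932051-114932350 and the Itga3 window at chr11:95076665-95076964, both on the minus strand.
Itga2: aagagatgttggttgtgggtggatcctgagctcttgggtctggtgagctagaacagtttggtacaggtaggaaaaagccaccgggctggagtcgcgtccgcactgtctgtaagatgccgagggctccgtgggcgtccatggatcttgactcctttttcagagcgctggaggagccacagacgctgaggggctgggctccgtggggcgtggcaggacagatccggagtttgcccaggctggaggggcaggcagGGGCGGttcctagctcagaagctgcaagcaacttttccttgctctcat
Itga3: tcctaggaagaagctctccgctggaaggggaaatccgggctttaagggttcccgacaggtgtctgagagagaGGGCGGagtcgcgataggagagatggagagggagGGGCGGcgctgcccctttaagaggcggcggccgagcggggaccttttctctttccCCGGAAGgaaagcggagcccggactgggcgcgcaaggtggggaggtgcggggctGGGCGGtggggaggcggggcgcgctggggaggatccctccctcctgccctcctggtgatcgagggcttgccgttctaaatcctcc

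Both strands were searched for TGANTCA (the AP-1 motif), GGAATG (TEAD), GGGCGG (GC box) and CCGGAAG (ETS), and no matches overlapped. The Itga2 window held 1 GC box, which begins at base 3 after the start, and none of the other motifs. The Itga3 window held 3 GC boxes, at bases -178, -144 and -35, and 1 ETS motif at -89. Its second window held 1 AP-1 motif at base 13 and 1 GC box at -246. Bases are counted from the RefSeq starts. In GENCODE, Itga3 starts at chr11:95076801, further upstream but within the printed window. Among 32851 mouse promoter windows of this length, 35.7% held the GC box, 8.86% the ETS motif, 14.7% the TEAD motif and 7.81% the AP-1 motif, so the GC box in both genes is a common feature.

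**Figure D1:**
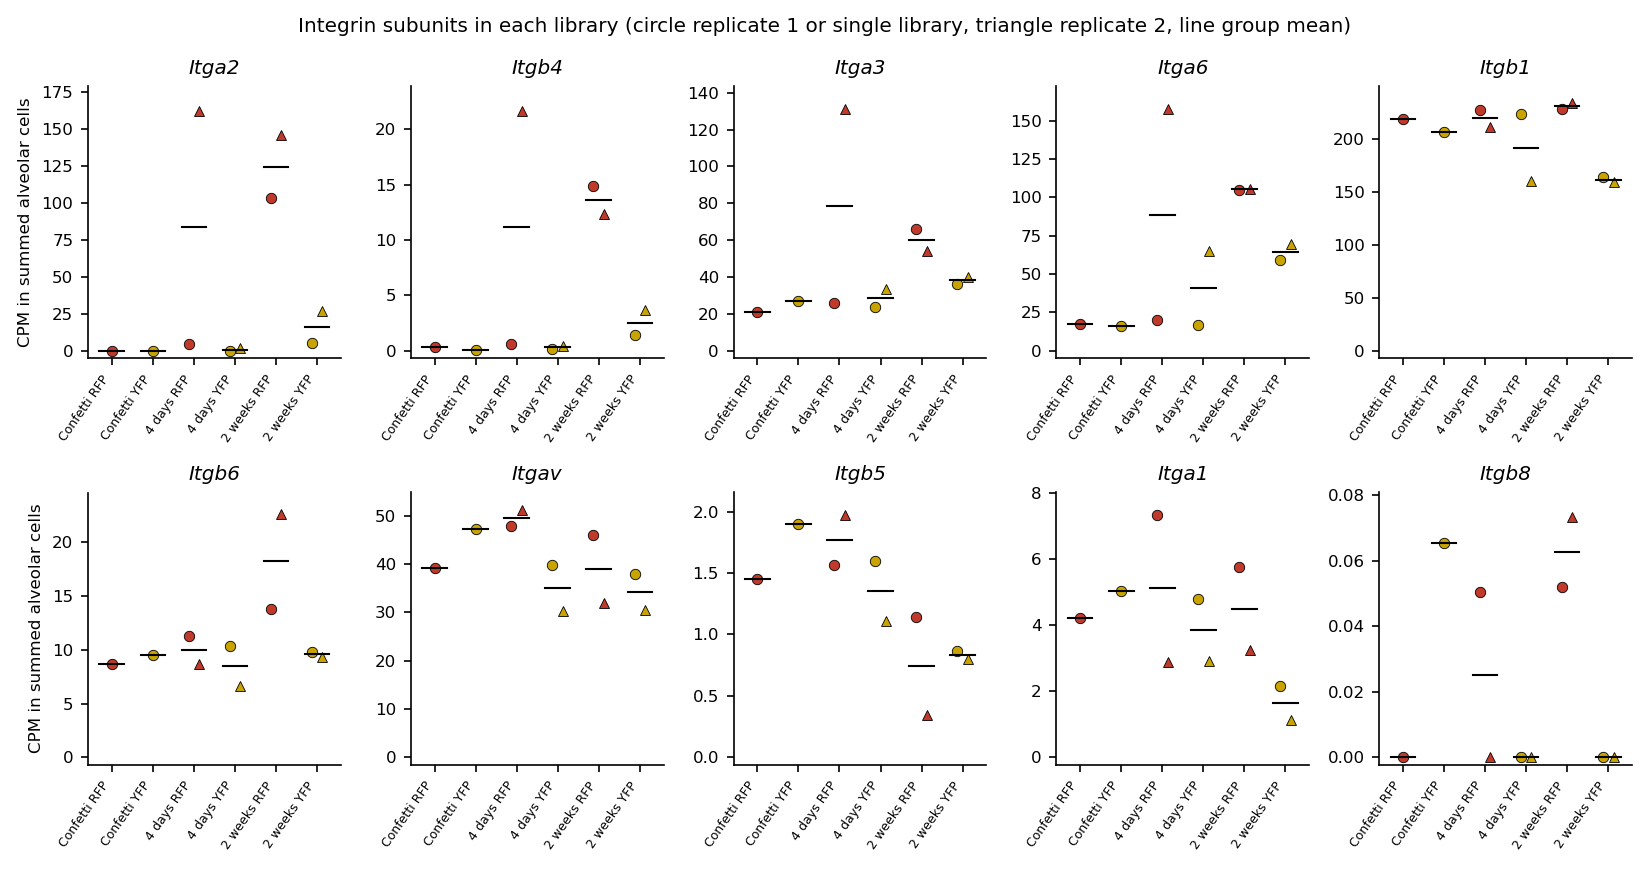
Level of each integrin subunit (CPM of summed alveolar cells, vertical axis) in the 10 libraries, grouped along the horizontal axis, with circles for replicate 1 or a single library, triangles for replicate 2 and a line at the group mean. Itga2 and Itgb4 lie near 0 in Confetti and 4 days YFP and are high in 2 weeks RFP and in 4 days RFP replicate 2, while Itgb1 stays between 159 and 234 CPM.

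Against Confetti, 2 weeks RFP cells had 12.71 ± 2.75 (log2 fold change ± SE) more Itga2, and this rise passed the threshold (adjusted p = 0.0445, edgeR's quasi-likelihood test). The fitted value rests on a Confetti level of 1 UMI. The plain ratio of levels, 13926 UMIs against that 1, was 3756 with a 95% counting interval from 674 to 148383. The methods count 1 Confetti sample for both colours, so its 2 libraries may come from the same pooled lungs, while the fit takes them as independent. With 1 of them left out the Itga2 call was lost, and so were the calls of Spp1 and Fermt1 described later. Leaving out 1 library at a time ended the call for 8 of 10 libraries, all but those of 4 days RFP, with adjusted p from 0.0598 (without 4 days YFP replicate 2) to 0.191 (without 2 weeks RFP replicate 2), and left it for 4 days RFP replicate 1 (0.0150) and replicate 2 (0.0147). The call was also lost when all cells that passed quality filters, immune and endothelial ones among them, were summed (8.09, adjusted p = 0.144).

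In 4 days RFP the ratio of Itga2 to Confetti was 1678 (301 to 66311) with 1400 of the 1497 UMIs in replicate 2, and the log2 fold change of 12.13 ± 2.75 did not pass (adjusted p = 0.469). Without 4 days RFP replicate 1 it was 13.11 (adjusted p = 0.0214) and without replicate 2 it was 8.10 (adjusted p = 1.00). With DESeq2 it was 11.62 (adjusted p = 0.000734). Wildtype 2 weeks YFP cells had 311 UMIs and a ratio of 302 (53.8 to 11974), with a log2 fold change of 9.73 ± 2.84 that did not pass (adjusted p = 0.764). The ratio in 4 days YFP was 32.1 (5.31 to 1314) and came from the 28 UMIs of replicate 2 alone (log2 fold change 5.64, adjusted p = 1.00).

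Between the colours of the mosaic lungs, RFP exceeded YFP in Itga2 by 2.99 ± 1.45 on the log2 scale at 2 weeks (adjusted p = 0.343) and by 6.49 ± 1.79 at 4 days (adjusted p = 0.807). RFP and YFP libraries with 1 number and time were taken as pairs from the same pooled lungs, and with these pairs in the fit both differences passed, at 3.31 (adjusted p = 0.00734) and 6.66 (adjusted p = 0.00574). Under all alternative settings the difference at 2 weeks ranged from 2.18 to 5.70. The unpaired difference at 4 days was 2.40 without 4 days RFP replicate 2, 13.99 without 4 days YFP replicate 2 and 7.45 without 4 days RFP replicate 1, where it passed (adjusted p = 0.0422). Over both times the unpaired difference was 4.47 ± 1.28 (adjusted p = 0.106, edgeR's quasi-likelihood test) and the paired one was 4.33 ± 0.63, which passed (adjusted p = 0.00579). The difference also passed without 4 days RFP replicate 1 (4.71, adjusted p = 0.0294), with DESeq2 (4.79, adjusted p = 0.0249), without the 5% of cells with most UMIs (6.72, adjusted p = 0.0482), with the replicate number alone as a term (4.59, adjusted p = 0.0317) and with no filter on low counts (4.50, adjusted p = 9.59e-51). The colour difference at 2 weeks minus that at 4 days was -3.51 ± 2.12 (adjusted p = 1.00; paired -3.34, adjusted p = 0.592), so the times were not shown to differ. Without 4 days RFP replicate 2 this value turned to 0.60.

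The Itga2 signal came from part of the cells. At least 1 Itga2 UMI was seen in 1 of 3801 Confetti RFP cells (0.0263%, exact 95% binomial interval 0.000666 to 0.146%) and in 0 of 3946 Confetti YFP cells, which by the limit of 3 counts allows a share of up to 0.0760%. In RFP cells the share was 1.08% and 25.1% in replicates 1 and 2 at 4 days, and 26.5% (25.1 to 27.9%) and 36.0% (34.2 to 37.8%) at 2 weeks. Wildtype YFP cells gave 0 of 1689 (up to 0.178%) and 0.170% at 4 days, and 0.544% and 2.87% at 2 weeks. The single cells with most Itga2 held 74 and 72 UMIs of it in 2 weeks RFP replicates 1 and 2.

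Depth differed between these libraries, so cells were also thinned to 2000 UMIs each, which left out at most 6 cells of any library. The thinned shares were 0.377% and 17.2% in 4 days RFP and 12.2% and 16.2% in 2 weeks RFP, against 0 in both Confetti libraries. Thinned YFP cells gave 0 and 0.0681% at 4 days, then 0.308% and 1.09% at 2 weeks. At even depth, 4 days RFP replicate 2 was thus above both 2 weeks RFP libraries, the reverse of the order with all UMIs. Immune cells sorted along with the alveolar ones serve as a background for free RNA. They gave 0 in 6 libraries and 0.733% in 4 days RFP replicate 2. In 2 weeks RFP, 1.38% and 3.05% of immune cells in replicates 1 and 2 had an Itga2 UMI, at a median depth of 7319 and 12432 UMIs against 15815 and 13385 in alveolar cells. The immune share in 2 weeks YFP was 0 in replicate 1 and 0.282% in replicate 2 (median depth 7068.5 UMIs, 6714 in alveolar cells), below the alveolar shares there. Intervals and limits cover counting error only.

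**Figure D2:**
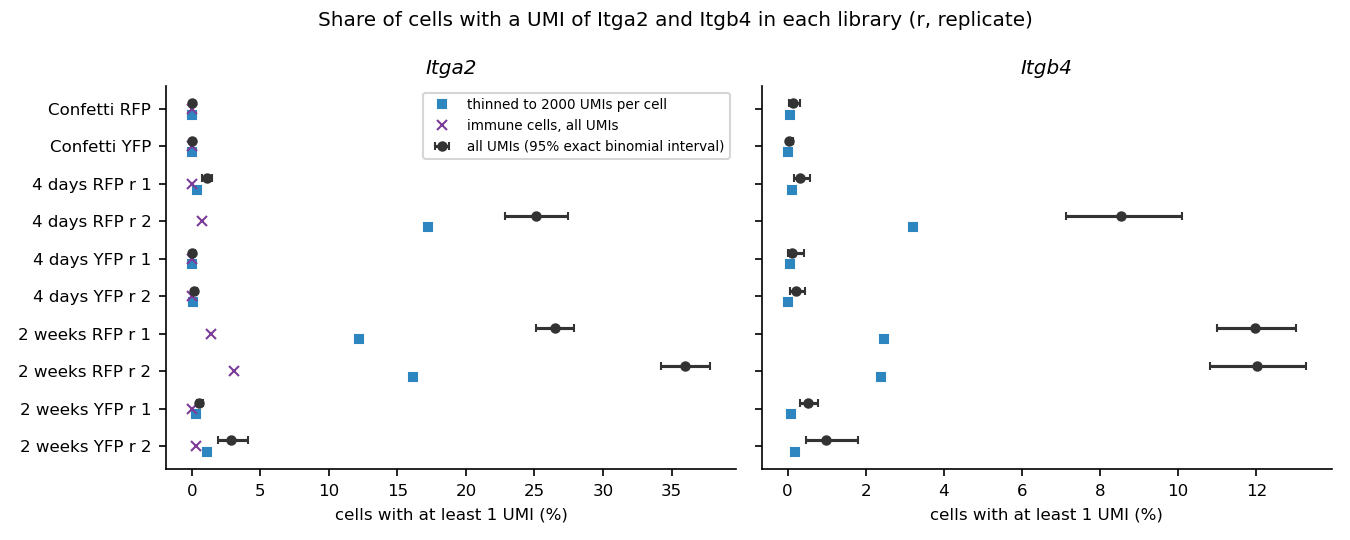
Share of alveolar cells with at least 1 UMI (percent, horizontal axis) of Itga2 and Itgb4 in each library, for all UMIs with exact 95% binomial intervals (black circles), after thinning to 2000 UMIs per cell (blue squares), and for Itga2 in immune cells of that library (purple crosses). Both genes separate 4 days RFP replicate 2 and the 2 weeks RFP libraries from the other 7, and thinning lowers the 2 weeks RFP shares most.

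The laminin receptor subunits Itgb4, Itga3 and Itga6 had higher levels in those same 3 RFP libraries than in Confetti. Itgb4, the beta chain of hemidesmosomes (chr11:115974709-116008412, plus strand), stood at 0.302 and 0.0655 CPM in Confetti RFP and YFP. It reached 0.657 and 21.7 CPM in 4 days RFP and 14.9 and 12.3 CPM in 2 weeks RFP, whereas YFP cells had 0.188 and 0.409 CPM at 4 days and 1.40 and 3.69 CPM at 2 weeks. As with Itga2, 4 days RFP replicate 1 lay with the wildtype libraries and the 2 weeks YFP libraries lay above Confetti.

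For Itgb4 the log2 fold change of 2 weeks RFP over Confetti was 6.53 ± 1.62, just short of the threshold (adjusted p = 0.0523). It passed with cells thinned to 2000 UMIs (7.39, adjusted p = 0.0416), with DESeq2 (6.61, adjusted p = 9.27e-06), with the replicate number as a term (5.98, adjusted p = 0.0433), with no filter (6.59, adjusted p = 1.24e-23) and without 4 days RFP replicate 1 or 2 (6.53 and 6.54, adjusted p = 0.00828 and 0.00933). Over both times RFP exceeded YFP in Itgb4 by 3.52 ± 0.97 (adjusted p = 0.103), and in the paired fit by 3.33 ± 0.54, which passed (adjusted p = 0.00772). The paired differences passed at 2 weeks (2.64, adjusted p = 0.0148) and at 4 days (5.14, adjusted p = 0.0231) as well. Under all alternative settings, with single libraries left out among them, the difference ranged from 1.87 to 4.34 at 2 weeks and from 1.04 to 6.08 at 4 days. Most of these refits did not pass. The share of cells with an Itgb4 UMI was 8.53% in 4 days RFP replicate 2, 12.0% in both 2 weeks RFP libraries and 0.0253 to 0.991% in the other 7. After thinning it was 3.22%, 2.47% and 2.38% in those 3 RFP libraries and at most 0.198% in the rest. Pooled over libraries, 0.413% of immune cells had an Itgb4 UMI (median depth 7071 UMIs, 5557 in alveolar cells).

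Itga3 (chr11:95044474-95076801, minus strand) had 21.3 and 27.2 CPM in Confetti RFP and YFP, 26.1 and 131 CPM in 4 days RFP, and 66.0 and 53.9 CPM in 2 weeks RFP. The YFP libraries had 23.9 and 33.8 CPM at 4 days and 36.4 and 39.9 CPM at 2 weeks. The 2 weeks groups did not overlap, while at 4 days 1 RFP library stood far above all others and its partner among the YFP levels. The log2 fold change between colours over both times was 1.02 ± 0.43 (adjusted p = 0.211), and that of 2 weeks RFP over Confetti was 1.32 ± 0.61 (adjusted p = 0.183). Under the alternative settings the value between colours over both times ranged from 0.33 to 1.28.

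Itga6 (chr2:71745616-71858416, plus strand, overlapped on that strand by the annotated genes Gm13663 and Gm13662) had high levels in some wildtype YFP libraries too. It stood at 17.2 and 16.4 CPM in Confetti RFP and YFP, at 19.97 and 157 CPM in 4 days RFP and at 105 CPM in each 2 weeks RFP library. In YFP cells it was 17.1 and 65.3 CPM at 4 days and 59.4 and 69.9 CPM at 2 weeks. Every 2 weeks library, of either colour, was above both Confetti libraries. The log2 fold change over Confetti was 2.65 ± 0.90 in 2 weeks RFP (adjusted p = 0.0979) and 1.95 ± 0.88 in 2 weeks YFP (adjusted p = 0.764), and neither passed. Between colours over both times it was 0.87 ± 0.57 (adjusted p = 0.416), and in the paired fit 0.72 ± 0.18, which passed (adjusted p = 0.0271). The unpaired value was 0.0503 without 4 days RFP replicate 2 (adjusted p = 0.970) and 1.30 without 4 days YFP replicate 2.

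Itgb1, the beta chain shared by most of these receptors (chr8:128685654-128733200, plus strand), varied little. Its level was 219 and 206 CPM in Confetti, and in RFP cells 227 and 211 CPM at 4 days and 228 and 234 CPM at 2 weeks. In YFP cells it was 223 and 160 CPM at the early and 164 and 159 CPM at the late time. The 2 weeks RFP libraries stood above the 2 weeks YFP libraries without overlap, by 0.52 ± 0.27 on the log2 scale (adjusted p = 0.359), and close to Confetti (0.12 ± 0.27, adjusted p = 0.779). Cells with an Itgb1 UMI made up 21.0 to 37.8% of every library after thinning.

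Itga1, the other collagen-binding alpha chain (chr13:114953096-115101964, minus strand), is the neighbour of Itga2, with 21.0 kb between them, and overlaps Pelo and Gm49395 on its strand. Its levels did not follow those of Itga2. They were 4.23 and 5.04 CPM in Confetti, and in RFP cells 7.33 and 2.90 CPM at 4 days and 5.76 and 3.25 CPM at 2 weeks. YFP cells had 4.80 and 2.92 CPM at the first time and 2.15 and 1.12 CPM at the second. The lowest were the 2 weeks YFP libraries, below both Confetti libraries (-1.42 ± 0.58, adjusted p = 0.764) and both 2 weeks RFP libraries (1.39 ± 0.57 for RFP over YFP, adjusted p = 0.293, and in the paired fit 1.42 ± 0.32, which passed at adjusted p = 0.0238). Endothelial cells, discarded from the sums, had 691 CPM of Itga1 without that scaling, against 4.55 in alveolar cells.

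Itgb6, a beta chain that binds RGD ligands (chr2:60598292-60722643, minus strand), had its highest levels in 2 weeks RFP. Its level was 8.70 and 9.49 CPM in Confetti, and at 4 days 11.3 and 8.70 CPM for RFP and 10.4 and 6.60 CPM for YFP. At 2 weeks RFP cells had 13.8 and 22.7 CPM and YFP cells 9.84 and 9.30 CPM. Both 2 weeks RFP libraries were above every other library, and 4 days RFP replicate 2, which was high in Itga2, was not. The log2 fold change of 2 weeks RFP over Confetti was 1.00 ± 0.34 (adjusted p = 0.0945), that over 2 weeks YFP was 0.93 ± 0.34 (adjusted p = 0.259), and that between colours over both times was 0.58 ± 0.25 (adjusted p = 0.224).

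Its partner Itgav (chr2:83724397-83806916, plus strand) ranged only from 30.3 CPM in 4 days YFP replicate 2 to 51.2 CPM in 4 days RFP replicate 2, with Confetti at 39.3 and 47.3 CPM. The 2 weeks RFP libraries had 46.0 and 31.9 CPM and those of 2 weeks YFP 38.0 and 30.5 CPM, which overlap. Itgb5 (chr16:33829665-33949338, plus strand) was low throughout, from 0.342 CPM in 2 weeks RFP replicate 2 to 1.97 CPM in 4 days RFP replicate 2, with 1.45 and 1.90 CPM in Confetti. Itgb8 (chr12:119158022-119238802, minus strand) had 9 UMIs over all alveolar cells, of which 7 were in 2 weeks RFP, 1 in 4 days RFP replicate 1 and 1 in Confetti YFP. It did not pass the filter on low counts and was not tested. The other 9 members passed it.

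**Figure D3:**
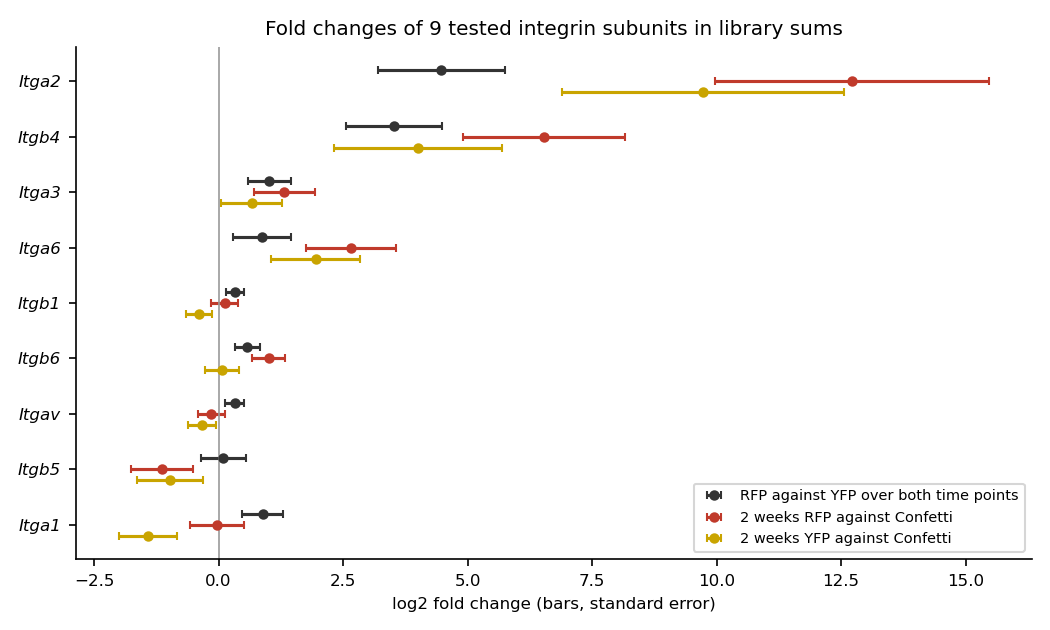
Log2 fold change (horizontal axis) with its standard error for the 9 tested subunits, in unpaired RFP against YFP over both times (black) and in 2 weeks RFP (red) and 2 weeks YFP (yellow) against Confetti. Itga2 and Itgb4 have the largest values with the widest errors, up to 12.71 ± 2.75, and Itgav and Itgb1 lie close to 0 in all 3.

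The unpaired tests between colours called none of the 9 members at an adjusted p of 0.05, and 0% of all genes passed in each of them. The paired fits called Itga2, Itgb4 and Itga6 over both times, against 17.0% of all genes, Itga1, Itga2 and Itgb4 at 2 weeks, against 16.5%, and Itga2 and Itgb4 at 4 days, against 1.04%. Over both times, 4 of 9 members (Itgb4, Itga2, Itga3 and Itgb6, all higher in RFP) had an unadjusted p under 0.05, against 21.6% of 13210 genes, and DESeq2 called 2 members and 9.73% of genes. The 4 RFP libraries did not lie wholly above the 4 YFP libraries in any member, as they did in 4.32% of all genes. All 9 members had a positive log2 fold change, against 47.9% of all genes, with a median of 0.87, against -0.02 over all genes.

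At 2 weeks, 2 of 9 members (Itgb6 and Itga1) had an unadjusted p under 0.05 against 16.4% of 13781 genes, and DESeq2 called 0 members and 3.37% of genes. Both RFP libraries lay above both YFP libraries in 7 of the 9, namely Itga1, Itga2, Itga3, Itga6, Itgb1, Itgb4 and Itgb6, against 28.3% of genes. At 4 days the unadjusted p was under 0.05 in 3 members (Itga2, Itgb4 and Itga3) against 5.66% of genes, and DESeq2 called 1 member and 0.769% of genes. RFP lay above YFP without overlap in Itga2, Itgb4 and Itgav, against 15.8% of genes. For the difference between these times, 0 members and 1.54% of genes had an unadjusted p under 0.05, 0% passed adjustment in the unpaired and the paired fit, and DESeq2 called 0 members and 0% of genes.

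In 2 weeks RFP against Confetti, 1 of 9 members was called, Itga2, and it was higher. Of all genes 5.34% were called in either direction and 3.42% as higher, and DESeq2 called 2 members and 16.1% of genes. An unadjusted p under 0.05 was found for 4 members (Itga2, Itgb4, Itgb6 and Itga6) against 31.1% of genes. RFP lay above Confetti without overlap in 6 members (those 4, Itga3 and Itgb1), against 37.3% of genes. In 4 days RFP against Confetti no member was called, as were 0% of genes, while DESeq2 called 2 members and 1.94% of genes. Here 4 members (Itga2, Itgb4, Itga3 and Itga6) had an unadjusted p under 0.05 against 8.80% of genes, and 4 (Itga2, Itgb4, Itga6 and Itgav) did not overlap with Confetti and were higher, against 24.5% of genes.

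Wildtype YFP cells gave no called member. At 2 weeks 0.0435% of genes were called against Confetti, and 3 members had an unadjusted p under 0.05 (Itga2 and Itgb4 higher, Itga1 lower), against 5.61% of genes, with 1 member and 0.740% of genes called by DESeq2. At 4 days 0.0290% of genes were called, and 0 members against 1.84% of genes had an unadjusted p under 0.05, with 0 members and 0.0871% of genes called by DESeq2. The RFP and YFP comparisons share the Confetti libraries and are not independent.

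Levels within the rebuilt states are a description and were not tested. Integrin genes were kept out of the genes used for clustering and out of the markers, but genes whose levels follow theirs were not. DATPs (damage-associated transient progenitors, a state between AT2 and AT1 found here by Krt8, Cldn4 and Sfn) had 485 CPM of Itga2 over all libraries, against 0.362 in AT2 cells, 3.45 in primed AT2 cells (marked by Lcn2 and Il33), 18.1 in cycling cells and 26.7 in the Cd177 mixed state. Levels by state are plain CPM, without TMM scaling. The Itga2 level in DATPs of the RFP libraries was 269 and 466 CPM at 4 days and 459 and 576 CPM at 2 weeks. This includes 4 days RFP replicate 1, which held only 30 such cells, against 471, 735 and 392 in the other 3. The share of DATPs with an Itga2 UMI was 70.0%, 70.7%, 91.3% and 94.9% in these libraries, and 41.4%, 49.4%, 54.5% and 60.2% after thinning.

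Most Itga2 UMIs came from DATPs in each library with more than 1 UMI, though those cells made up at most 32.9% of any library. They held 69.1% and 96.1% of Itga2 UMIs in 4 days RFP, 84.1% and 61.9% in 2 weeks RFP, and, for YFP cells, 96.4% in replicate 2 at 4 days and 83.1% and 76.3% at 2 weeks. In 2 weeks RFP replicate 2, a further 28.2% came from a cluster of 897 cells over all libraries that met no state's naming rule and was led by Htra4, Hopx and Akap5. The Itga2 level there was 199 CPM. At the finer clustering (resolution 1.5) a cluster led by the same 3 genes was named AT1-like, with 687 cells, of which 617 were in 2 weeks RFP replicate 2, and its level was 169 CPM for Itga2 and 68.2 CPM for Itgb6. At that clustering 4304 cells were named DATP and their Itga2 level was 278 CPM, with 0 in the 260 and 253 such cells of Confetti RFP and YFP. They included a cluster of 2012 cells led by Fosb, Thbs1 and Nfkbia, whose DATP marker score of 0.270 was close to the limit of 0.25. In 4 days RFP replicate 1 this clustering named 591 cells DATP in place of 30, with 90 Itga2 UMIs in place of 67. Their Itga2 level was 24.99 CPM with a UMI in 5.58% of them. The high DATP level of that library thus held only for the smaller set of cells. The other 3 RFP libraries had 296 to 433 CPM at that setting.

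Itgb4 followed the same order, with 63.7 CPM in DATPs, 20.3 in the unnamed cluster and 0.220 in AT2 cells. Its DATP level was 24.1 and 62.3 CPM in 4 days RFP and 71.3 and 47.6 CPM in 2 weeks RFP. At the finer clustering it was 2.22 CPM in 4 days RFP replicate 1 and 32.1 to 52.8 CPM in the other 3. Itga3 had 204 CPM in DATPs and 83.0 in the unnamed cluster, against 23.6 to 36.6 CPM in the other states. Itga6 had 302 CPM in DATPs and 16.9 in AT2 cells, with levels between these in primed AT2 cells (59.9), cycling cells (71.6) and the Cd177 mixed state (61.5). Its level in primed AT2 cells was, at 4 days, 37.0 and 56.0 CPM for RFP and 57.2 and 53.4 for YFP, and at 2 weeks 66.1 and 61.8 for RFP and 62.0 and 40.8 for YFP, so mutant and wildtype cells of that state overlapped. In AT2 cells it was 10.8 to 29.6 CPM over the 10 libraries.

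Itgb1 stood at 404 CPM in DATPs and 322 in the unnamed cluster, against 159 to 214 CPM elsewhere. The beta chain of the TGF-beta-releasing receptor showed another order. Itgb6 was highest in the unnamed cluster, with 62.9 CPM, against 19.9 in DATPs and 9.67 in AT2 cells. In that cluster it was 43.5 CPM in 4 days RFP replicate 2 and 77.6 and 60.0 CPM in 2 weeks RFP, while DATPs of those libraries had 6.57, 18.1 and 29.5 CPM. Itgav was 72.9 CPM in DATPs, 62.0 in the unnamed cluster and 26.8 to 44.7 in the other states. Itgb5 and Itga1 had no state above 1.89 and 5.93 CPM.

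**Figure D4:**
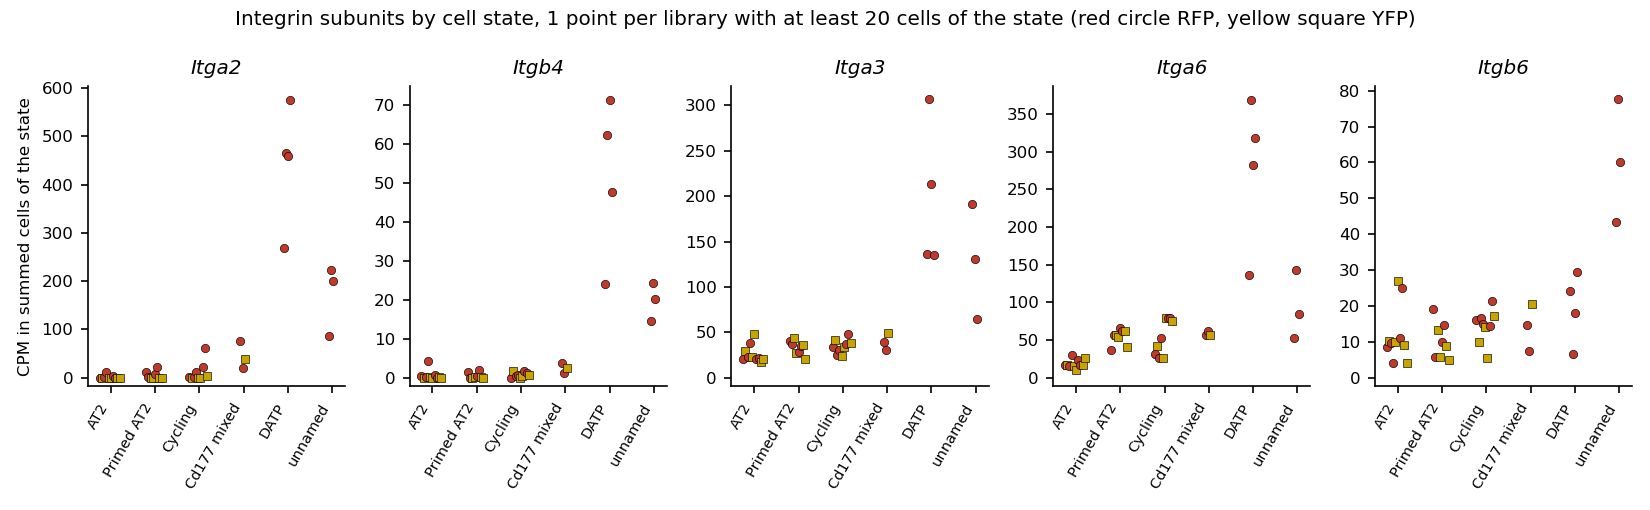
Level of Itga2, Itgb4, Itga3, Itga6 and Itgb6 (plain CPM of the summed cells of a state, vertical axis) in the rebuilt states along the horizontal axis, with 1 point for each library that has at least 30 cells of the state (red circles RFP, yellow squares YFP, Confetti included). The DATP points of Itga2 start at 269 CPM and those of Itgb4 at 24.1 CPM, far above the AT2 points, while the unnamed cluster is highest for Itgb6.

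The same pairs appeared cell by cell. In cells thinned to 2000 UMIs, those with an Itga2 UMI were compared with the other cells of the same library in the 3 libraries with many of them. Itga3 was seen in 41.1% of Itga2+ cells and 12.7% of the others in 4 days RFP replicate 2 (246 of 1429 cells were Itga2+), in 32.3% and 8.46% in 2 weeks RFP replicate 1 (493 of 4050) and in 19.6% and 7.79% in replicate 2 (448 of 2772). Itga6 gave 47.6% and 13.8%, 38.3% and 14.9%, and 31.3% and 12.8% in these libraries. Itgb4 was rarer than both but had a larger ratio between the 2 kinds of cell, with 9.76% and 1.86%, 12.0% and 1.15%, and 5.58% and 1.76%.

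Itgb1, the partner of the Itga2 chain, was seen in 52.0% and 30.01%, 53.4% and 32.3%, and 49.3% and 35.6%. Itgb6 did not separate the cells in 4 days RFP replicate 2, where it was in 1.22% of Itga2+ cells and 1.27% of the others. At 2 weeks it was in 4.26% and 1.97% in replicate 1, and in 5.58% and 4.13% in replicate 2. Krt8, a keratin of the DATP state, was seen in 72.4%, 92.1% and 95.5% of Itga2+ cells against 49.5%, 62.2% and 68.0% of the others. No doublets were removed from these cells.

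**Figure D5:**
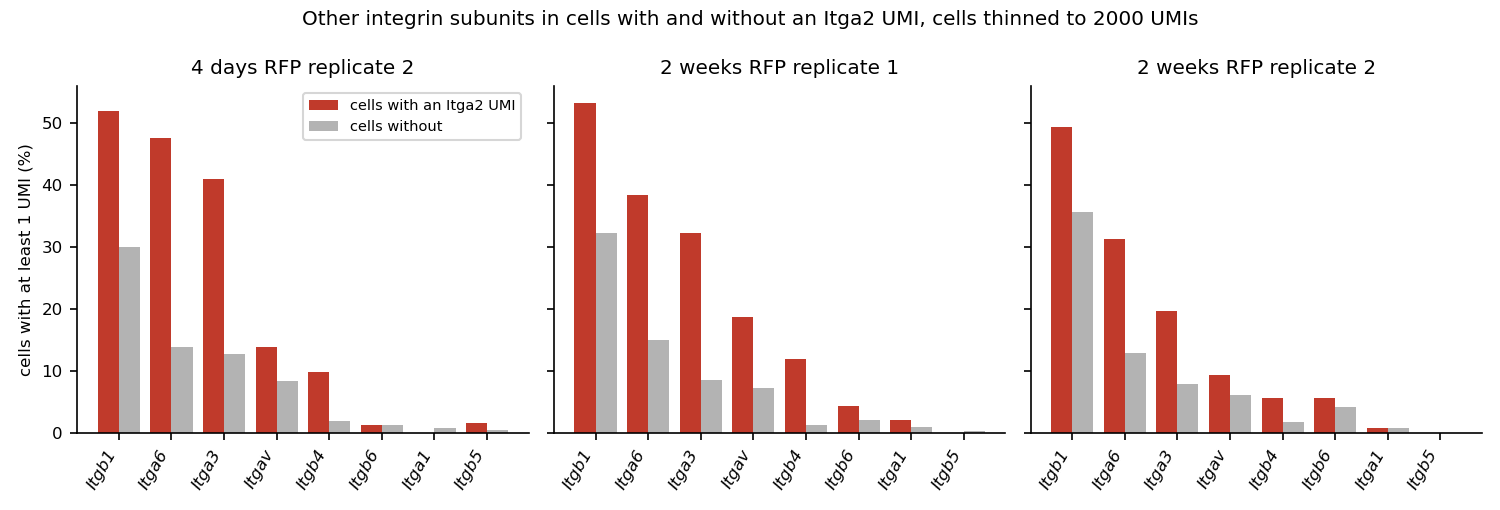
Share of cells (percent, vertical axis from 0, after thinning to 2000 UMIs per cell) with a UMI of each of 8 other members, among cells with (red bars) and without (grey bars) an Itga2 UMI, in 4 days RFP replicate 2 and the 2 weeks RFP libraries. Itga3, Itga6, Itgb1 and Itgb4 are seen more often in Itga2+ cells in each of the 3, and Itgb6 is seen in 1.22 to 5.58% of them.

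Other cells of the sort showed which members are not restricted to the alveolus. By plain CPM, Itga2 had 46.4 CPM in 338 endothelial cells, of which 14.8% had a UMI, but 0.382 CPM in 264 ciliated cells. Itgb5 was higher in mesenchymal (74.4 CPM), immune (44.4) and endothelial cells (26.3) than in alveolar cells (1.15). Itgb8 had 6.03 CPM in mesenchymal cells, from 3 UMIs, and 0.0387 in alveolar cells. Itgb4 had 25.6 CPM in ciliated cells, against 8.29 over all alveolar cells. Itgb1 had 739 CPM in endothelial and 674 in mesenchymal cells, and Itga6 had 211 CPM in endothelial cells.

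Across the 10 libraries, the genes whose levels were most like Itga2 among 7044 genes with a mean of at least 10 CPM were Msln (Pearson r 0.994 of log2(CPM + 1)), Wincr1 (0.993), Cldn4 (0.992), Fam107b (0.991) and Plaur (0.988). Msln codes for the surface protein mesothelin, Cldn4 for a tight junction claudin that was also a marker used to name DATPs, and Plaur for the urokinase receptor. Among the members, r with Itga2 was 0.976 for Itgb4, 0.892 for Itga6, 0.884 for Itga3 and 0.539 for Itgb6. These libraries share depth and state make-up, and the values are a description.

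Genes that work with these receptors were counted in lists chosen with earlier results known. In the comparison of colours over both times, the unpaired edgeR fit called 0 genes in any list, while an unadjusted p under 0.05 was found for 2 laminin chains, 5 ligands, 8 adaptors and kinases and 1 other subunit that were higher in RFP. It was also found for 2 other subunits and 1 adaptor or kinase that were lower, and for 0 collagen IV chains and 0 hemidesmosome partners, against 21.6% of all genes. Among 7 tested laminin chains, 6 had a positive log2 fold change, against 47.9% of all genes, with a list median of 0.41. Lama3, a laminin alpha chain, had 1.17 ± 0.42 (adjusted p = 0.158). Against Confetti, 2 weeks RFP gave 0.78 ± 0.25 for the gamma chain Lamc1 (adjusted p = 0.0850).

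Of 15 ligands 12 were found and 8 tested. Of those 8 ligands with an RGD motif or bound by such receptors, 6 had a positive value, against 47.9% of all genes, with a median of 1.33. Spp1, which codes for osteopontin, had 0.423 and 0.262 CPM in Confetti, and in RFP cells 5.21 and 202 CPM at 4 days and 1885 and 1064 CPM at 2 weeks. In YFP cells it had 0.0942 and 1.23 CPM early and 70.1 and 161 CPM late, so that both late YFP libraries were above 4 days RFP replicate 1. It was the called gene of its list in 2 weeks RFP against Confetti, 1 of 9 against 5.34% of all genes (12.09 ± 2.06, adjusted p = 0.0377), and over both times it did not pass (5.09 ± 1.22, adjusted p = 0.0874) unless the fit was paired (4.72, adjusted p = 0.00578). The Spp1 call against Confetti held in 8 of 17 alternatives, with adjusted p up to 0.180. It was lost with all cells that passed quality filters and without any single library other than those of 4 days RFP. Fn1, which codes for fibronectin, had 3.30 ± 1.03 over both times (adjusted p = 0.120), and 3.26 in the paired fit (adjusted p = 0.00735).

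Of 20 adaptors and kinases that act on the inner side of integrins, 18 had a positive log2 fold change over both times, with a median of 0.19. Of all genes, 47.9% were positive in that comparison. In 2 weeks RFP against Confetti 1 of 20 was called, against 5.34% of all genes, namely Fermt1, which codes for a kindlin that activates beta chains in epithelia. It had 0 UMIs in both Confetti libraries and 910 in 2 weeks RFP (7.24 and 8.61 CPM), so it was at least 81.8-fold higher (against 3 counts over both Confetti libraries, adjusted p = 0.0362). The Fermt1 call held in 9 of 17 alternatives, with adjusted p up to 0.173. It was lost with all cells and without any single library other than those of 4 days RFP and 2 weeks RFP replicate 1. The YFP libraries had 0 and 0.0584 CPM of Fermt1 at 4 days and 0.377 and 0.962 CPM at 2 weeks, and those of 4 days RFP 0.253 and 2.55 CPM. Between colours over both times the values were 4.01 ± 0.76 for Fermt1 (adjusted p = 0.0809) and 1.17 ± 0.29 for Flna, an actin crosslinker (adjusted p = 0.0874), and both passed in the paired fit (4.01, adjusted p = 0.00152, and 1.11, adjusted p = 0.0254).

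Other subunits, collagen IV chains and partners had no called gene in either comparison without pairs, and in 2 weeks RFP against Confetti an unadjusted p under 0.05 was found for 2 other subunits, 1 higher and 1 lower, 0 collagen IV chains and 1 partner, which was higher, against 31.1% of all genes. Of 16 other integrin subunits 8 were tested, and 1 had a positive value over both times, against 47.9% of all genes, with a median of -0.44. The positive one was Itgb7 (3.23 ± 0.95, adjusted p = 0.111, and 3.22, adjusted p = 0.0142, in the paired fit), with at most 2.67 CPM in any library. Itgae had -1.42 ± 0.43 (adjusted p = 0.116). Against Confetti, 2 weeks RFP gave -0.61 for Itga9 (adjusted p = 0.156) and 2.96 for Itgb7 (0.158). The 5 tested collagen IV chains had a median of -0.16 over both times, with 0.46 for Col4a1 (adjusted p = 0.320) and 0.20 for Col4a2 (0.646). In 2 weeks RFP against Confetti the values were -1.12 for Col4a4 (adjusted p = 0.170) and 0.64 for Col4a1 (0.234). The 6 tested hemidesmosome and tetraspanin genes had a median of 0.15, with 0.64 for Plec (adjusted p = 0.254), the plakin that links the Itgb4 chain to keratin, and 0.39 for Cd151 (0.350). Cd151, a tetraspanin that binds laminin receptors, had 1.06 ± 0.32 in 2 weeks RFP over Confetti (adjusted p = 0.0764), and Cd82, another tetraspanin, -0.37 (0.332).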

How the data were processed

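The authors deposited raw UMI counts per gene and cell for 10 libraries of 10x Genomics cells, aligned to GRCm38. The submitters' processing notes name Cell Ranger 3.1.0 and the file headers 5.0.1, and the labels and the methods differ in the kit version. No batch label was given, though the methods mention more than 1 day of library preparation. Gene positions are from GENCODE M21 (GRCm38) and promoter sequences from RefSeq (GRCm38.p6).

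Cells were kept with at least 1000 genes, at most 50000 UMIs and a mitochondrial share of at most 15%, which left 32698 of 42012 barcodes. Louvain clusters (scanpy 1.11.5, 5000 variable genes, 30 components, resolution 0.8) of immune, endothelial, ciliated and mesenchymal cells were set aside (3117 cells, 9.53%), and the remaining 29581 alveolar cells were clustered again and named from marker lists. A cluster took the state with the highest mean standardised marker score if 3 of its markers were each detected in at least 25% of cells. No other state could have more markers among the 10 leading genes of the cluster. The score had to reach 0.25 except for AT2, where clusters of 4196 and 3195 cells scored 0.190 and 0.151. No doublets were removed. A cell was called female with a UMI of Xist and none of 4 Y-linked genes, and male with the reverse.

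UMIs of alveolar cells were summed per library and tested with edgeR 4.0.16 (quasi-likelihood F test, TMM, filterByExpr over the groups, R 4.3.3). The 6 groups entered as coefficients over all 10 libraries, and Confetti was the mean of its 2 libraries, taken as independent. The comparison of colours over both times used the 8 mosaic libraries and a term for time. Where a group had 1 library, it was taken to vary like the others. Numbers were taken to pair RFP and YFP within a time, since the methods sort both colours from pooled lungs, female shares were 82.7% and 85.1% in replicates 1 at 4 days and 35.2% and 25.8% in replicates 1 at 2 weeks and replicate differences correlated between colours (0.480 at 4 days, 0.627 at 2 weeks). Paired values are given where they change a call. The paired fit within each time was chosen after seeing the data. Adjustment followed Benjamini and Hochberg across every gene in the fit. Each SE is the absolute log2 fold change divided by the square root of the F statistic, so it is approximate, above all where counts are near 0. The script was tested on simulated counts. Alternatives were DESeq2 1.42.0 and other settings given at the end. Ratios to 1 UMI carry exact 95% counting intervals, and shares of cells carry exact Clopper-Pearson intervals, or where 0 the limit of 3 counts.

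The members and gene lists were chosen with earlier results of these data known. All members are named. From each list, genes past the threshold are named, or otherwise the 2 of lowest p, for the colours over both times and for 2 weeks RFP against Confetti. Genes of the other comparisons are not named. The gene of the mutant allele and 1 gene that this rule names are not reported here.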

Additional observations from a re-analysis of the deposited data

How the results depend on the processing

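How many members passed an adjusted p of 0.05 depended on the filter, the tool and single libraries, as did the number of all genes called, which stands in brackets, and the cause was not tested. For the colours over both times the count rose from 0 (0) to 4 (1932) with no filter on low counts, 2 (1285) with DESeq2 and 1 (193) without the 5% of cells with most UMIs. At 2 weeks it rose from 0 (0) to 2 (1380) with no filter, at 4 days from 0 (0) to 3 (492) with no filter and 1 (106) with DESeq2, and for the difference between the times from 0 (0) to 1 (48) with no filter. Against Confetti, 2 weeks RFP went from 1 (736) to 5 (3252) with no filter, 2 (2222) with DESeq2, 2 (583) with thinned cells and 0 (0) with all cells that passed quality filters, and 4 days RFP from 0 (0) to 4 (819) with no filter and 2 (267) with DESeq2. For YFP the count rose from 0 (6) to 3 (536) with no filter and 1 (102) with DESeq2 at 2 weeks, and from 0 (4) to 2 (133) with no filter at 4 days. Leaving out 1 library at a time gave 0 to 3 members for the colours over both times, 0 to 3 at 4 days, 0 to 4 for 2 weeks RFP against Confetti and 0 to 3 for 4 days RFP against Confetti. The upper values came without 4 days RFP replicate 1, with 1448, 194, 1907 and 329 genes called in that order (for 2 weeks RFP against Confetti, also without replicate 2, with 1921), and for 2 weeks RFP against Confetti as few as 1 gene was called without either Confetti library.

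With the replicate block as 4 pairs, 3 members (2247 genes) passed over both times, 3 (2180) at 2 weeks, 2 (138) at 4 days and 0 (0) for the difference between times. Across the times, where a number ties no lungs, replicate differences correlated by 0.0208 to 0.296. With the number alone as the replicate block, 2 members (920 genes) passed over both times and 2 (1328) in 2 weeks RFP against Confetti. This replicate block turned Itga1 in 2 weeks RFP against Confetti to 0.38, and in 4 days YFP against Confetti Itgb4 to -0.0605 and Itga3 to -0.0773.

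Other turns of direction came with the cells summed, the filter or 1 library left out. With all cells, Itgb5 and Itga1 turned to -0.57 and -0.30 and Itgae to 1.04 over both times, Itgb5 to 0.91 in 2 weeks RFP against Confetti, and Itga6 to 0.18 in the difference between times. Itga1 in 2 weeks RFP against Confetti was 0.0297 with no filter and 0.0496 without the cells with most UMIs. Leaving out 1 library gave -0.23 to 0.39 for Itgb5 over both times, -0.45 to 0.0631 for Itgav and -0.52 to 0.29 for Itga1 in 2 weeks RFP against Confetti, -0.14 to 2.19 for Itga3 and -1.05 to 2.36 for Itga6 between colours at 4 days, and -1.84 to 7.51 for Itga2 and -0.0181 to 0.49 for Itga3 in 4 days YFP against Confetti. For the difference between times it gave -11.01 to 0.60 for Itga2, -3.52 to 1.497 for Itgb4, -1.53 to 0.80 for Itga3 and -1.66 to 1.76 for Itga6, and the positive ends of these 4 came without 4 days RFP replicate 2. Of 1076 log2 fold changes refitted, 923 kept their direction and side of the threshold, 102 passed it only under the alternative, 26 no longer passed and 25 turned. For 32 of 40 group means of shares of cells, the change on thinning was at least the SD between the 2 libraries of the group. This count takes in Itgb8 in the YFP groups, where both the change and the SD were 0.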
